A study of Mus musculus with 24 samples.

Results

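The 9 genes described here move water, bicarbonate and sodium across the colonocyte, the absorptive cell of the large bowel, and were measured in the proximal colon of 24 mice. They were the water channels Aqp8 and Aqp4, the carbonic anhydrases Car1, Car2 and Car4, the epithelial sodium channel subunit Scnn1a, the sodium pump subunit Atp1b1, the chloride channel Cftr and guanylin, Guca2a. Members were all probes that carried 1 of these 9 gene symbols, 13 of the 45281 probes on the array. The 13 probes belong to 9 of the 19057 gene symbols named on it. For each gene the brightest probe, the one with the highest mean over the 24 arrays, gave the values below, and all 9 brightest probes were detected (detection score above 0.99) on 24 of 24 arrays.

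All mice were 3-month-old male IL-10 KO animals on the 129/SvEv background, which lack the anti-inflammatory cytokine interleukin-10 throughout the body and develop gut inflammation without any further treatment. Their mothers received a diet with 5000 (H) or 25 (L) IU of vitamin D3 per kg through pregnancy and lactation, and the pups received 1 of the same diets after weaning. The first letter of a group name is the mother's diet and the second is the pup's own, which gives HH, HL, LH and LL with 6 mice in each. The 24 mice carried 20 mothers' labels, and 4 mothers contributed 1 pup to each post-weaning diet. There was no wild type group, so inflammation could be compared only between IL-10 KO mice. The probe for Il10 itself was detected on 20 of the 24 arrays, at 7.15 to 8.09 log2 units, and cannot serve as a check of the deletion without wild type animals.

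The absorptive colonocyte takes sodium in at its luminal face through the epithelial sodium channel and sodium-proton exchange, and the sodium pump drives it out at the other face. Carbonic anhydrases supply the protons and bicarbonate that sodium-proton and chloride-bicarbonate exchangers trade, and water follows through water channels and between cells. Chloride channels drive the opposite, secretory flow, and guanylin is a peptide hormone of the gut that acts through guanylate cyclase C to favour secretion. Loss of absorptive transport is a known feature of the inflamed colon.

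Whole proximal colon was measured, so fewer colonocytes and less RNA in each colonocyte cannot be told apart. The share of probes detected ranged from 21.2 to 37.0% of each array. Epithelial RNA was present in every mouse, with 13 of the 14 epithelial lineage markers that had a probe detected on at least 12 arrays and the probe for Epcam, another such marker, on 0. Of 6 small intestinal enterocyte markers Fabp2, Apoa4 and Lct were detected on 0 arrays, Apoa1 and Sis on 1 each and Fabp6 on 17 (mean 7.54 log2 units). None of the 7 exocrine pancreas markers with a probe was detected on 12 or more. In their inflammatory genes 3 mice stood apart, HH 10B and HL 10B, which carried the same mother's label, and LL 6. Results that rest on these 3 mice are given with and without them.

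The 250 bases before the transcription start were read from RefSeq (GRCm38.p6), which had a window for 5 of the 9 genes in the table used. They are shown for the 4 of these 5 genes that were called with the inflammation index below. The windows lie at chr7:123462044-123462293 for Aqp8, chr11:84957504-84957753 for Car4 and chr4:119637482-119637731 for Guca2a on the plus strand, and at chr1:164458356-164458605 for Atp1b1 on the minus strand. Capitals mark matches to 1 of 8 short motifs, searched on both strands.
Aqp8: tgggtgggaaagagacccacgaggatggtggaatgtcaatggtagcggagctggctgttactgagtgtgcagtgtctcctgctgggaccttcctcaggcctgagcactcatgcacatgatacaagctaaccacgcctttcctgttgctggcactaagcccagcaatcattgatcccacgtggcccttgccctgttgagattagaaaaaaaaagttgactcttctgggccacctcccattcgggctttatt
Car4: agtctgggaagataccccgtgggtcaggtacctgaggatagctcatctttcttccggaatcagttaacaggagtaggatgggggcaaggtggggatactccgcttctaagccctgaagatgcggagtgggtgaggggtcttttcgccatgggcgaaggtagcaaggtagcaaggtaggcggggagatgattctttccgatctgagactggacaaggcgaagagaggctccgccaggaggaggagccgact
Atp1b1: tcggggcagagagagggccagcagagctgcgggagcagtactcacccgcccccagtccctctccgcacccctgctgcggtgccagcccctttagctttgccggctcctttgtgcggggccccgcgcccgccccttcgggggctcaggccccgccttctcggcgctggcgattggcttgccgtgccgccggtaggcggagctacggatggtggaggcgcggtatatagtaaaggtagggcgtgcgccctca
Guca2a: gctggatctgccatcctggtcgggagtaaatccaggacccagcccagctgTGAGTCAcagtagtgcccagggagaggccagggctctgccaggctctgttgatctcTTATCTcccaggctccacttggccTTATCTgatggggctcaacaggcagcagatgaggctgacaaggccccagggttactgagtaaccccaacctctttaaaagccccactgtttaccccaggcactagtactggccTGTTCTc
Of the 5 windows the Guca2a window held matches, and none was found in the others. They were an AP-1 site (TGACTCA, read here on the minus strand) 200 to 194 bases before the start, 2 GATA factor sites (AGATAA, also on the minus strand) at 144 to 139 and 120 to 115 bases, and a steroid receptor half-site (TGTTCT) at 7 to 2 bases. The AP-1 letters occurred in 4.46% of the 32851 promoter windows of this length, the GATA letters in 9.99% and the half-site letters in 16.1%. The other 5 motifs were a CDX site (TTTATG), an HNF1 half-site (GTTAAT), a nuclear receptor half-site (AGGTCA), an NF-kappaB site and a TATA box (TATAAA), and no match overlapped another. The Guca2a window held 1 CG dinucleotide, the Aqp8 window 5, the Car4 window 11 and the Atp1b1 window 24, against a median of 6. The Cftr window held 30 and had no match to any of the 8 motifs.

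Expression of the water channel Aqp8 varied the most among the 9 genes. Aqp8, an apical and intracellular water channel of surface colonocytes, had a median of 10.66 log2 units in HH, with a lowest of 8.96 and a highest of 12.01. In HL its median was 10.54 (9.87 to 11.60), in LH 11.03 (10.00 to 11.98) and in LL 10.59 (10.00 to 11.86). The groups overlapped throughout, and the lowest and the highest mouse, HH 11A and HH 10B, were in the same group. The highest mouse was 8.23 times the lowest. The SD over 24 mice was 0.79, larger than that of 99.5% of the 5547 genes detected on every array, whose median SD was 0.27. A second Aqp8 probe, also detected on 24 arrays, ranged from 8.82 to 11.64 with an SD of 0.81.

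Car4, the membrane-anchored carbonic anhydrase of the luminal surface, came next, with an SD of 0.69 (99.1% of detected genes had a smaller one). In HH it ran from 10.72 to 13.32 around a median of 11.87, and in HL from 11.61 to 13.12 around 12.05. In LH it ran from 11.14 to 13.02 around 12.30, and in LL from 11.16 to 13.09 around 11.71. As for Aqp8, HH held both ends of the range, in the same mice HH 11A and HH 10B. The highest mouse of HH, HL and LL was the one that stood apart in inflammatory genes, and the highest LH mouse was LH 3B for both Aqp8 and Car4.

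Aqp4, a water channel of the basolateral membrane, had an SD of 0.55 and Atp1b1, the beta subunit that brings the sodium pump to the membrane, one of 0.52. Aqp4 was lowest in HL 10 at 10.52, and Atp1b1 in LL 3B at 11.69. Aqp4 was highest in HH 10B at 12.64 and Atp1b1 in HL 10B at 13.65. Within LH the mouse LH 6A was the lowest for both, at 10.79 for Aqp4 and 11.72 for Atp1b1. A second Aqp4 probe, designed to another transcript, was detected on 9 arrays only, between 6.92 and 7.44.

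The cytosolic carbonic anhydrases varied less. Car1 ranged from 12.64 in LH 6A to 14.54 in HL 10B (SD 0.49), and Car2 from 9.44 in LL 3B to 11.19 in LH 3B (SD 0.44). The lowest and highest mice for Car2 thus carried the same mother's label. A second Car2 probe was detected on 0 arrays. These SDs were above those of 95.1% of detected genes for Car1 and 92.2% for Car2.

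Guca2a, Cftr and Scnn1a were the least variable. Guca2a ranged from 13.79 in HL 8 to 15.03 in HH 10B, a 2.35-fold span (SD 0.37). Cftr, the cyclic nucleotide regulated chloride channel of crypt cells, ranged from 7.69 in HL 10 to 9.20 in LH 13 (SD 0.36). Scnn1a, the alpha subunit of the epithelial sodium channel, ranged from 8.24 in HH 11A to 9.79 in HH 10B (SD 0.33). All 3 still had a larger SD than most detected genes, with percentiles of 81.6, 79.8 and 73.3. A second Cftr probe was detected on 0 arrays.

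**Figure D1:**
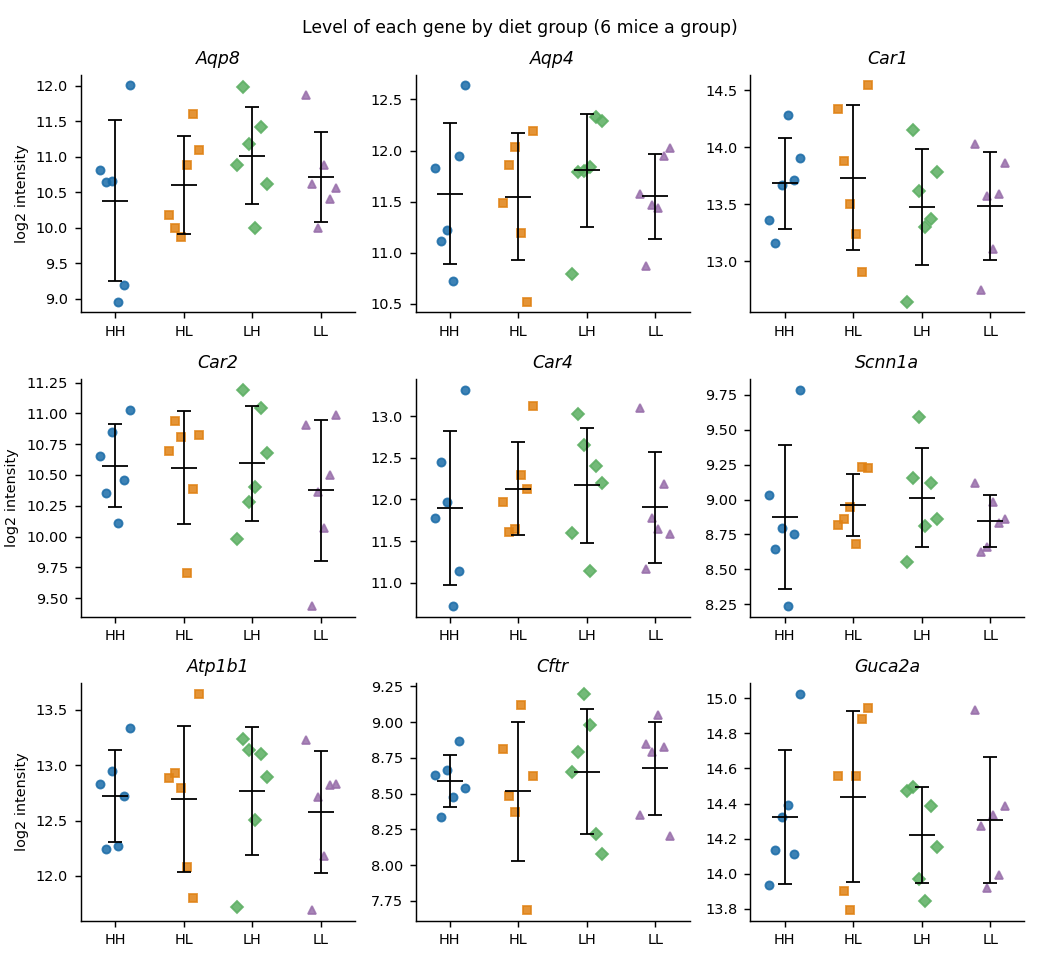
Level of each gene in log2 intensity (vertical axes, own scale in each panel) for the 6 mice of HH, HL, LH and LL, with the mean and SD in black. The 4 groups overlap in every panel, and Aqp8 and Car4 span the widest range, 8.23-fold and 6.04-fold.

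The first comparison asked whether the vitamin D3 content of the post-weaning diet changed these genes. There were no significant differences: 0 of 9 genes passed an adjusted p of 0.05 in limma, against 0 of 31298 probes tested (0%). Without adjustment 1322 probes (4.22%) had a p under 0.05, and 0 of the 9 genes. Means on the high diet (HH and LH, 12 mice) and the low diet (HL and LL, 12 mice) were 10.70 ± 0.95 and 10.66 ± 0.63 (SD) for Aqp8 and 12.03 ± 0.79 and 12.02 ± 0.60 for Car4. Aqp4 had the largest positive difference, high minus low, at 0.14 (95% interval -0.32 to 0.61). Guca2a lay at the other end at -0.10 (-0.41 to 0.20). The interval for Aqp8 ran from -0.61 to 0.68, so differences within that range remained compatible with the data from 12 mice a side.

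The mother's diet was compared in the same way, HH and HL against LH and LL. Again 0 of 9 genes and 0 of 31308 probes (0%) passed, and 849 probes (2.71%) had an unadjusted p under 0.05, none of them for the 9 genes. Aqp8 averaged 10.50 ± 0.90 after a high and 10.87 ± 0.64 after a low maternal diet, a difference of -0.37 (95% interval -1.02 to 0.27). Car1 averaged 13.71 ± 0.51 and 13.48 ± 0.47, a difference of 0.23 (-0.18 to 0.64). The other 7 genes differed by between -0.12 and 0.12. Both intervals for Aqp8 and Car1 include 0.

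The interaction of the diets called 0 of 9 genes and 0 of 37654 probes (0%), and so did the test of any difference among the 4 groups. The interaction estimates ran from -0.52 ± 0.62 (SE) for Aqp8 to 0.09 ± 0.29 for Cftr, each smaller than its SE.

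**Figure D2:**
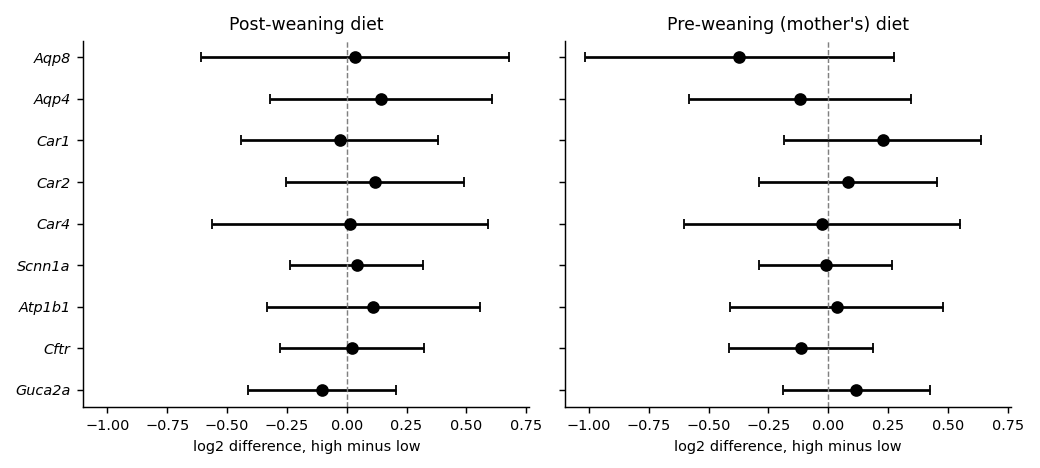
Difference in log2 intensity between the high and the low vitamin D3 diet (horizontal axes) for each gene, after weaning (left) and before weaning (right), with the 95% interval of the limma fit over 24 mice. Every interval crosses 0, and those of Aqp8 are the widest, from -0.61 to 0.68 and from -1.02 to 0.27.

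Pups of 4 mothers were split between the post-weaning diets, which allowed a comparison within litters. Car4 was higher in the pup on the high diet in 4 of 4 litters, by 0.32 (mother 10), 0.20 (mother 10B), 1.01 (mother 13) and 1.86 (mother 3B). Aqp4 was likewise higher in 4 of 4 litters, by 0.59, 0.44, 0.36 and 0.92 in the same order. The mean differences were 0.85 ± 0.76 (SD) for Car4 and 0.58 ± 0.25 for Aqp4, each with a two-sided p of 0.125 in an exact permutation test, the smallest that 4 pairs can give. In the litter of mother 3B the pup on the low diet, LL 3B, had 21.9% of probes detected and the pup on the high diet 34.7%. The other 7 genes were higher on the high diet in 2 or 3 of the 4 litters.

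The spread between mice was next set against inflammation. An inflammation index was computed for each mouse as the mean log2 deviation of 22 detected inflammatory genes, among them Il1b, Tnf, Ifng, Cxcl9, S100a8, S100a9, Mmp3 and Timp1, and it held none of the 9 genes. The index was -1.01 in HL 10B, -0.82 in HH 10B and -0.60 in LL 6. In the other 21 mice it lay between -0.17 and 0.59, the highest in HH 11A. Slopes below are the change in log2 intensity per unit of the index with a mean for each diet group in the limma fit.

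Of the 9 genes, 5 were called with a negative slope and 0 with a positive one (0 and 2 under the median scaling described below), against 0.959% of the 37654 probes tested with a called negative slope (1.55% in either direction). Among the 5547 genes detected on every array 2.51% had a called negative slope. The 5 were Car4, Scnn1a, Aqp8, Atp1b1 and Guca2a. The median slope was -0.69 for the 9 genes and 0.0024 for the genes detected on every array. These calls depended on the 3 mice with the lowest index, since without them 0 of the 9 genes and 0 of 39168 probes had a called negative slope (0%).

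Car4 had the steepest slope, -1.59 ± 0.25 (SE), with an adjusted p of 0.00216 (-0.02 under median scaling, adjusted p = 0.965). It stood at 13.12 in HL 10B, 13.32 in HH 10B and 13.09 in LL 6, and at 10.72 in HH 11A with the highest index. The level in LH 3B was nearly as high, at 13.02 with an index of 0.10. The slope was -1.92 ± 0.62 in the other 21 mice (adjusted p = 0.991). Its call held when any single mouse was left out, with adjusted p from 0.000886 to 0.0382.

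Aqp8 had a slope of -1.48 ± 0.35 (adjusted p = 0.0328; -0.14 under median scaling, adjusted p = 0.788), and its 3 values were 11.10 in HL 10B, 12.01 in HH 10B and 11.86 in LL 6. HL 10B, with the lowest index, was exceeded by mice of all 4 groups, and HH 11A had the lowest Aqp8 of all at 8.96. Without the 3 mice the slope was -1.96 ± 0.84 (adjusted p = 0.991). The second Aqp8 probe had a slope of -1.35 ± 0.40 and was not called (adjusted p = 0.0995), and the mean of both probes gave an adjusted p of 0.0507.

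The sodium genes also had negative slopes, which turned positive under the median scaling described below. Scnn1a had a slope of -0.69 ± 0.14 (adjusted p = 0.0120) and Atp1b1 one of -1.02 ± 0.24 (adjusted p = 0.0333). Without the 3 mice they were -0.88 ± 0.32 and -1.42 ± 0.60, neither called. Scnn1a was highest in HH 10B at 9.79 and lowest in HH 11A at 8.24. In LH 13, with an index of 0.08, it was 9.59, above HL 10B (9.22) and LL 6 (9.12). Atp1b1 reached 13.65, 13.33 and 13.23 in HL 10B, HH 10B and LL 6, and 13.24 in LH 3B with an index of 0.10.

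Guca2a had the least firm of the 5 calls, with a slope of -0.69 ± 0.17 (adjusted p = 0.0418). Its 3 highest mice were HH 10B, HL 10B and LL 6, at 15.03, 14.95 and 14.93, with HL 10 next at 14.88. Without those 3 mice the slope was -0.31 ± 0.42 (adjusted p = 0.991). With the mother's label as a block for littermates the adjusted p was 0.0511, which left 4 genes called. Leaving out 1 mouse ended the Guca2a call for 14 of the 24 mice.

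Aqp4, Car2 and Car1 had slopes that were not called and that turned positive under median scaling, at -0.97 ± 0.27 (adjusted p = 0.0794), -0.63 ± 0.24 (adjusted p = 0.233) and -0.61 ± 0.27 (adjusted p = 0.356). Car1 stood at 14.28 in HH 11A, the third highest of the 24 mice. Cftr had a slope of 0.07 ± 0.22 (adjusted p = 0.948, 95% interval -0.39 to 0.53). Its values in the 3 mice, 8.35 to 8.62, lay within the range of the rest.

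Single mice moved the number of genes called. It was 1 (Car4) without HH 10B, 2 (Car4 and Scnn1a) without LL 6, 3 (Aqp8, Car4 and Scnn1a) without HL 10B and 3 (Car4, Scnn1a and Guca2a) without HH 11A. Shares of all probes called in these fits are not given here, so the counts are not results about these 9 genes in particular. In the 21 mice alone, Pearson's r with the index was -0.51 for Car4 (permutation p = 0.0167, Spearman's rho -0.49, permutation p = 0.0260) and -0.53 for Scnn1a (permutation p = 0.0157, rho -0.56, permutation p = 0.00858). It was -0.45 for Aqp8 (permutation p = 0.0428, rho -0.42, permutation p = 0.0577). In all, 9 such relations were computed, and these p-values are unadjusted. Leaving out the 2 mice farthest from the median index, which also narrows its range, reduced r to -0.31, -0.20 and -0.32. For these 3 genes the relation within the 21 mice thus depended on those 2. The same step moved Aqp4 from -0.40 to -0.07, Car2 from -0.32 to -0.16 and Atp1b1 from -0.31 to -0.06. The r of Guca2a went the other way, from -0.23 to -0.59, as did that of Car1, from -0.08 to -0.21, and Cftr went from 0.05 to 0.14.

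The direction of these slopes was also relative to the scaling of the arrays. When arrays were scaled to a common median in place of quantile normalization, with the index recomputed on those values, the median slope of the genes detected on every array shifted to 0.68, Scnn1a (0.32) and Atp1b1 (0.55) turned positive, and Car4 (-0.02), Aqp8 (-0.14) and Guca2a (-0.11) were near 0. Relative to that median the same 5 slopes were -0.36, -0.13, -0.70, -0.82 and -0.79. Car2 (0.92) and Cftr (0.47) were called positive on that scale, and 35.4% of all probes were.

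**Figure D3:**
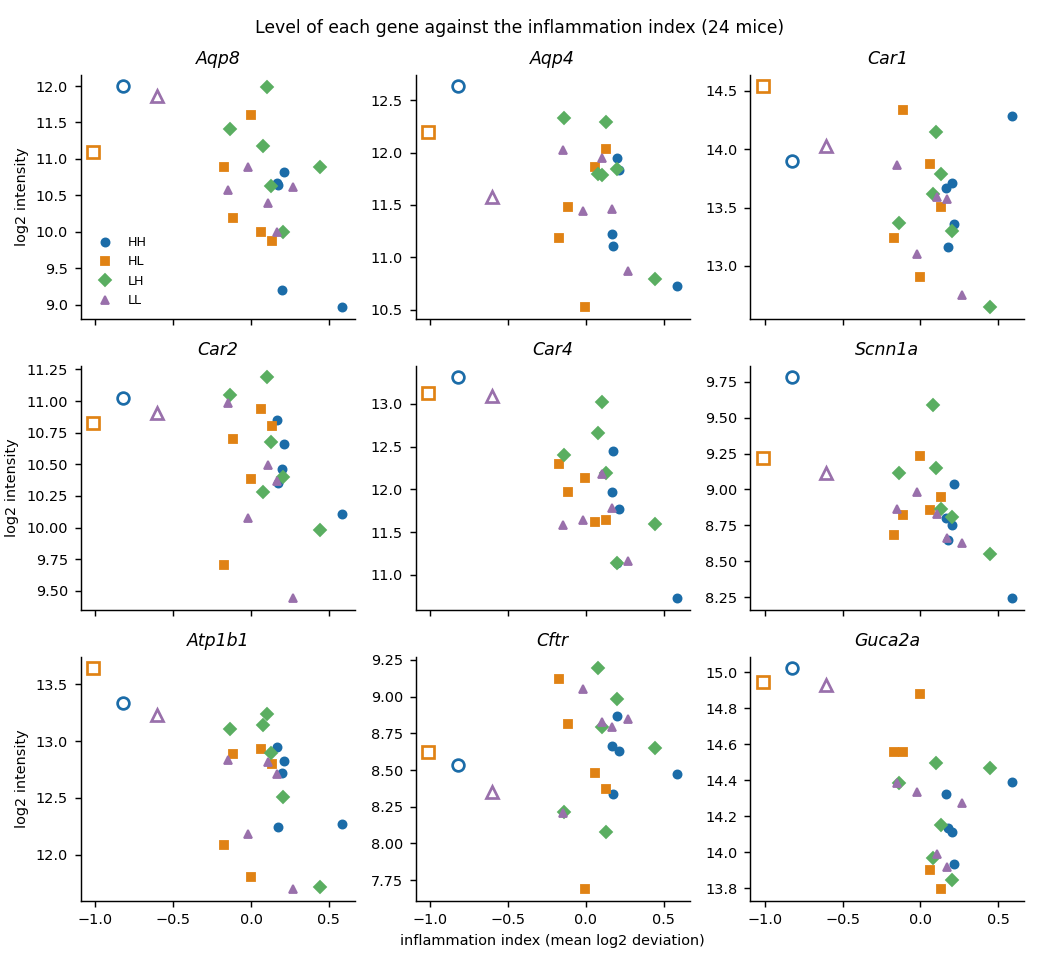
Level of each gene in log2 intensity (vertical axes) against the inflammation index of the mouse (horizontal axes, mean log2 deviation of 22 genes), 24 mice by diet group. Open symbols are HL 10B, HH 10B and LL 6, at -1.01, -0.82 and -0.60, where Car4 is above 13.0 in each, as it is in LH 3B at 0.10. Slopes are those of quantile-normalized values, which for Scnn1a, Atp1b1, Aqp4, Car1 and Car2 turn positive under median scaling.

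Smooth muscle genes moved with the same 3 mice. Of 12 smooth muscle markers 7 fell with the index (5 with neqc, and 0 fell and 1 rose under median scaling), and their mean log2 deviation was 0.87 in HL 10B, 0.59 in HH 10B and 0.85 in LL 6, against -0.37 to 0.14 in the other 21. By group it ran from -0.36 to 0.59 in HH, from -0.15 to 0.87 in HL, from -0.37 to 0.09 in LH and from -0.21 to 0.85 in LL. No smooth muscle marker was undetected on every array. The smooth muscle mean and the inflammation index had r = -0.84 over 24 mice, so a fit that holds both can hardly separate them. With this mean as a covariate 0 of 9 genes were called with the inflammation index, and Car1 (0.10) and Cftr (-0.30) changed sign. That count is given without the share of all probes called in the fit, so it is not a result about these 9 genes in particular. Car4 was at -1.30 ± 0.47 (SE, adjusted p = 0.835) and Aqp8 at -1.71 ± 0.66 (adjusted p = 0.851). Without the covariate these SEs were 0.25 and 0.35. Leukocyte markers had a mean deviation of -0.49, -0.51 and -0.83 in the same 3 mice.

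Among epithelial cells the markers differed by list. Of 14 epithelial lineage markers tested 0 were called (12 rose under median scaling), and their mean deviation in the 3 mice was 0.07 to 0.17. Of 8 surface colonocyte markers tested 1 fell (6 rose and 0 fell under median scaling), and their mean deviation was 0.44 in HL 10B, 0.20 in HH 10B and 0.42 in LL 6, against -0.59 to 0.51 in the other 21. Of 8 goblet cell markers 1 fell (1 rose and 0 fell under median scaling), and their mean was 0.40, 0.38 and 0.36 in the same mice, the 3 highest of the 24. With the epithelial lineage mean as a covariate Car4, Scnn1a and Guca2a were called, and Aqp8 (-1.57, adjusted p = 0.0509) and Atp1b1 (-0.64, adjusted p = 0.0574) were not. Here too the share of all probes called is not given.

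The rest of the transport pathway was described by 8 lists with 56 genes, of which 52 had a probe and 49 were tested. With the inflammation index 0 rose and 5 fell, whereas under median scaling 21 rose and 0 fell. The median slope of the 49 was -0.10, and the background of 0.959% for a called negative slope applies here too. By either diet 0 of them were called, and without the 3 mice 0 were called with the index.

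The steepest was Slc9a3, the apical sodium-proton exchanger NHE3, at -1.54 ± 0.24 (adjusted p = 0.00187). Slc9a3r1, the scaffold that anchors it, had a slope of -0.66 ± 0.12 (adjusted p = 0.00454), and Slc26a3, the chloride-bicarbonate exchanger of the surface colonocyte, one of -1.12 ± 0.21 (adjusted p = 0.00699). The other 2 were Ano1, a calcium-activated chloride channel (-0.60, adjusted p = 0.0181), and Gucy2c, the guanylin receptor (-0.52, adjusted p = 0.0402). These 5 were named after their values were seen, and the slopes of all 5 were positive and not called under median scaling (0.21 to 0.59). The highest slope in the lists was that of the cytosolic carbonic anhydrase Car13, at 0.37 ± 0.13 and not called (adjusted p = 0.184; 1.06 and called under median scaling). By list, 2 of 7 tested sodium entry genes fell, 1 of 6 anion exchangers, 1 of 7 chloride and potassium channel genes and 1 of 5 guanylin signalling genes, and 0 of 6 water channels, 6 carbonic anhydrases, 8 aldosterone pathway genes and 4 sodium pump genes.

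The 9 genes were also set against a second measure. The percentage of probes that an array detected had r = 0.01 with the inflammation index over 24 arrays, given as a description. Fitted in place of the index, it called 3 of the 9 genes, all with a positive slope, against 12.1% of the 37654 probes with a called positive slope (22.4% in either direction). Among the 5547 genes detected on every array 17.1% had a called positive and 21.2% a called negative slope. The 3 were Car2, Car1 and Atp1b1. Counting both directions, 3 of 9 is near the share among the genes detected on every array. The count is thus not a result about these 9 genes in particular.

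Car2 rose by 0.078 ± 0.013 log2 units per percentage point of probes detected (adjusted p = 0.000272). Atp1b1 rose by 0.073 ± 0.020 (adjusted p = 0.0117) and Car1 by 0.067 ± 0.018 (adjusted p = 0.0116). Aqp4 had a slope of 0.059 ± 0.023 (adjusted p = 0.0693). Without the 3 mice apart, Aqp4 was called as well (0.077 ± 0.018, adjusted p = 0.00408), which made 4 of 9 against 12.9% of probes.

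Scnn1a and Car4 had slopes of 0.0024 ± 0.016 and 0.0012 ± 0.033, and Aqp8, Guca2a and Cftr had negative slopes that were not called. LL 3B and LH 6A, with 21.9 and 23.5% of probes detected, were the 2 lowest mice for Atp1b1 and for Car1. HL 2A, with the lowest share at 21.2%, had the second lowest Car2. With the share as a covariate beside the inflammation index, 7 of the 9 genes had a called slope on the index, Aqp4 (-0.96, adjusted p = 0.0173) and Car2 (-0.62, adjusted p = 0.00176) joining the 5. The percentage of all probes called in that fit is not given here, so the count is not a result about these 9 genes in particular. The part of RNA quality in the share of probes detected was not tested.

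**Figure D4:**
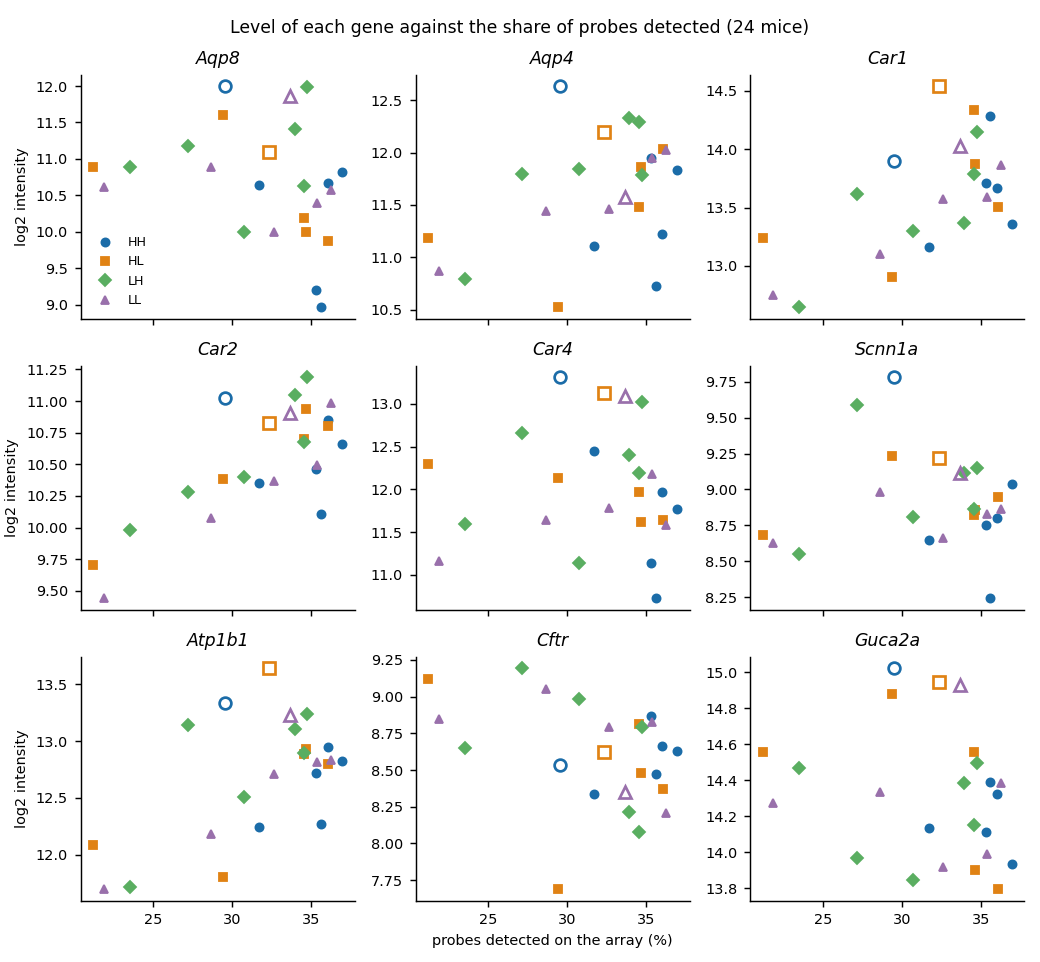
Level of each gene in log2 intensity (vertical axes) against the percentage of probes detected on the array (horizontal axes, 21.2 to 37.0%), 24 mice by diet group. Car2 takes its 3 lowest values on the 3 arrays with 21.2, 21.9 and 23.5% of probes detected, and the slope of Car4 is 0.0012. Open symbols are the 3 mice with the lowest inflammation index.

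Correlations among the 9 genes were computed for their 36 pairs in the 21 mice, with p-values unadjusted. Of the 36 pairs, 8 had an r above 0.5, and at that cutoff they fell into 2 sets with no gene in common. The split depended on the cutoff, since Scnn1a with Atp1b1 joined the sets at r = 0.46 (permutation p = 0.0365, rho 0.56, permutation p = 0.0100). Both permutation p-values were under 0.05 for 11 pairs, 10 of them positive. How many pairs of all detected genes had an r above 0.5 is not given here. The first set held Aqp8, Car4 and Scnn1a. Aqp8 and Car4 had r = 0.78 (permutation p = 2e-05, Spearman's rho 0.70, permutation p = 0.000740), and 0.66 without the 2 mice farthest from the Aqp8 median. Scnn1a had r = 0.64 with Aqp8 (permutation p = 0.00197, rho 0.53, permutation p = 0.0141) and 0.63 with Car4 (permutation p = 0.00232, rho 0.48, permutation p = 0.0313). Without the 2 mice farthest from the median of Aqp8 or of Car4, these were 0.53 and 0.46.

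The second set held Atp1b1, Car2, Car1 and Aqp4. Atp1b1 and Car2 had r = 0.82 (permutation p = 4e-05, rho 0.80, permutation p = 3e-05), and 0.75 without the 2 farthest mice. Atp1b1 and Aqp4 had r = 0.80 (permutation p = 5e-05, rho 0.63, permutation p = 0.00258), and 0.77 without them. The same step moved Car1 with Car2 from 0.58 to 0.39, Car1 with Atp1b1 from 0.71 to 0.55 and Aqp4 with Car2 from 0.64 to 0.69. Removing the share of probes detected from both genes changed the r of Car1 with Car2 from 0.58 to 0.03 and that of Aqp8 with Car2 from 0.14 to 0.72, and brought Car2 to 0.65 with Car4 and 0.61 with Scnn1a, so the sets were not separate on that scale, while Aqp8 with Car4 was then at 0.81 and Aqp4 with Atp1b1 at 0.71.

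Guca2a correlated negatively with Aqp4 (r = -0.54, permutation p = 0.0108, rho -0.48, permutation p = 0.0277) in the 21 mice, and over 24 mice the same pair had r = -0.10. Cftr had no r above 0.5 with any of the other 8 genes over 21 or 24 mice. Its most negative r was with Car2, at -0.39 over 21 mice and -0.40 over 24. Over all 24 mice 13 pairs had an r above 0.5, and the sets were then joined, by Car4 with Atp1b1 (0.59), Scnn1a with Atp1b1 (0.58) and Aqp4 with Scnn1a (0.55).

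**Figure D5:**
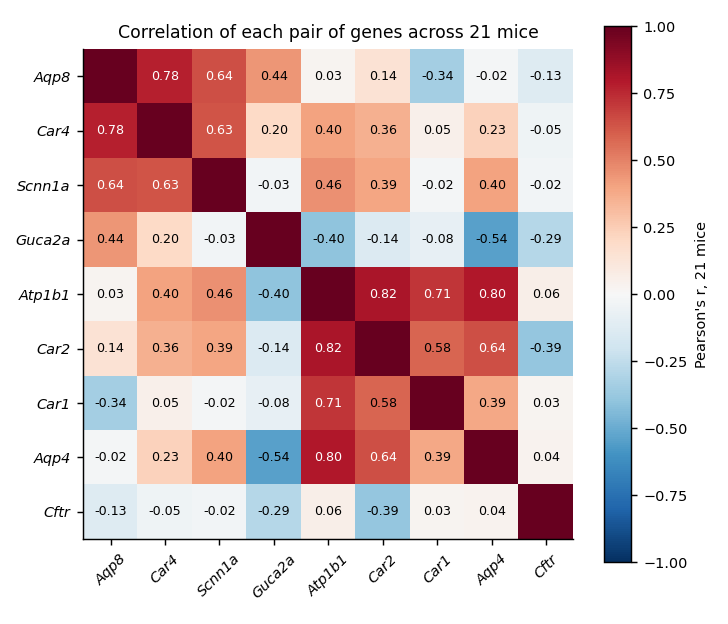
Pearson's r of each pair of the 9 genes over 21 mice, from -1 (blue) to 1 (red), both axes listing the genes. Aqp8, Car4 and Scnn1a form 1 block (0.63 to 0.78) and Atp1b1, Car2, Car1 and Aqp4 another (0.39 to 0.82). Between the blocks the highest r is 0.46, for Scnn1a with Atp1b1, and the highest r of Cftr is 0.06, with Atp1b1.

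The genes whose pattern over 24 mice was most like each of the 9 were taken from 5538 other genes detected on every array, by Pearson's r as a description. Dpep1, a membrane dipeptidase, was nearest to both Aqp8 (r = 0.83) and Car4 (r = 0.86) and was the third nearest to Guca2a (r = 0.81). Its own r with the inflammation index was -0.83 and with the share of probes detected -0.16. Without the 3 mice apart, its r was 0.86 with Aqp8, 0.75 with Car4 and 0.63 with Guca2a. Aqp8 was next most like Rhoc, a small GTPase, and Cyp4f14, a cytochrome P450 (r = 0.81 and 0.79), and Car4 was next most like B3gnt7, a glycosyltransferase, and Dhrs11, a dehydrogenase (0.83 for each). Without the 3 mice these were 0.79 and 0.73 for Aqp8, and 0.77 and 0.70 for Car4.

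Guca2a was nearest to the histone gene H2bc7 (0.84) and to Vsig2 (0.83). Scnn1a was nearest to Gprc5a (0.86), an orphan receptor, then Jund (0.84), a subunit of AP-1, and Sema4b (0.82). Without the 3 mice these were 0.79, 0.81 and 0.76. All the genes nearest to Aqp8, Car4, Scnn1a and Guca2a had an r with the share between -0.35 and 0.29.

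Atp1b1 was nearest to Baiap2l1 (0.95), then Heph, the ferroxidase hephaestin, and Fam120a (0.92 for each). Car2 was nearest to Plekhb2 (0.89), Rtn3 (0.88) and citrate synthase, Cs (0.86), Car1 to the Wnt receptor Fzd5, Pld1 and Emp1 (0.85 to 0.86), and Aqp4 to Tmprss2, a membrane serine protease, Appbp2 and Atp10b (0.83 to 0.84). These 12 genes had an r of 0.55 to 0.71 with the share of probes detected. Cftr was nearest to Vapa (0.88), the mitochondrial gene ATP6 (0.87) and Fam114a1 (0.87), whose r with the share was negative, between -0.53 and -0.48. Without the 3 mice their r with Cftr was 0.88, 0.90 and 0.89.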

How the data were processed

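Total RNA of the proximal colon was labelled and hybridised to Illumina MouseWG-6 V2 bead arrays, 1 array a mouse. The authors deposited quantile-normalized log2 values, scanner intensities and, per the file headers, a detection score for every probe. The detection scores are a fraction (0 to 1), made by the authors' scanner software before deposit. Quantile normalizing the deposited intensities anew gave log2 values within 0.000415 of those deposited. The genome build used for the probes was not given in the sources used here, and promoter windows came from RefSeq (GRCm38.p6). Symbols came from the platform annotation.

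The deposited log2 values were fitted with limma (version 3.58.1, R 4.3.3), with a mean for each group and Benjamini-Hochberg adjustment over all probes tested, at a threshold of 0.05. Probes above the 20th percentile of their array in 80% of the arrays of either pooled diet group were kept for the 2 diet comparisons. This followed the study's methods and left 31298 and 31308 probes. The interaction, 4-group, index and share fits kept probes that passed in any of the 4 groups, 37654 probes. Without the 3 mice the index and share fits tested 39168. The inflammation index used the brightest probe of each of 22 list genes detected (score above 0.99) on at least 12 arrays. Intervals are 95% intervals of the fit. Permutation tests drew 100000 resamples in Python 3.11.15, and littermates were compared by an exact sign-flip test, two-sided. The fits were tested on simulated data. A mother's label that 2 mice shared was read as a shared litter. The correlation of their deviations from the group means over genes was 0.57, 0.73, -0.14 and -0.18. The members and gene lists were chosen with earlier results of these data known. Named were all 9 genes, the 3 genes most like each, and the pathway genes with the highest and lowest slope. Arrays have no count depth, and their number limits the precision.

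Alternatives were neqc, median scaling, other filters, the mother's label as a block, covariates, other indices and leaving out mice. The files name no slide, so a slide block was not fitted.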

Additional observations from a re-analysis of the deposited data

Results flagged for a closer look

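Of the 36 combinations of gene and diet group tested (9 genes in 4 groups of 6 mice), 1 held a mouse far from the other 5. Aqp4 in LH was 10.79 in the mouse LH 6A and 11.79 to 12.33 in the other 5. The gap to the nearest mouse was 0.646 of the range of the group, above the 95% critical value of Dixon's test for 6 samples. Chance passes that value in about 1 in 20 groups. The array of LH 6A had 23.5% of probes detected, and its inflammation index of 0.45 was the second highest of the 24.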

How the results depend on the processing

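By post-weaning diet, pre-weaning diet, their interaction and the 4 groups, 0 of 9 genes were called under every alternative run, including each of 24 omissions of 1 mouse (0 to 0) and the mother's label as replicate block (0 genes). The methods' t-test, run for the post-weaning and the pre-weaning comparison, called 0 as well. The post-weaning differences of Aqp4 and Guca2a and the pre-weaning differences of Aqp8 and Car1 kept their sign throughout. Median scaling moved the median pre-weaning difference of detected genes to 0.18. With the inflammation index 5 genes were called, all with negative slopes. The count was 4 to 7 with neqc, no filter, only probes detected on 12 or more arrays, the mother's label as replicate block (4 genes), the share of probes detected as a covariate, the mean of all probes, an index of scaled genes and an index of all list genes. Percentages of all probes called in these fits are not given here. With median scaling none of the 5 was called, and 2 others, Car2 and Cftr, were, with positive slopes. The count was 3 without diet group means, 3 with the epithelial lineage covariate, and 0 without the 3 mice, with the epithelial defence index, with the smooth muscle covariate and with both covariates. Leaving out 1 mouse gave 1 to 5. Shares of all probes called are not given for these fits either, except for negative slopes without the 3 mice. The cause of these shifts was not tested.

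Signs of slopes reversed as follows. Median scaling gave Aqp4 0.67, Car1 0.59, Car2 0.92, Scnn1a 0.32 and Atp1b1 0.55, against a median of 0.68 over detected genes. The epithelial defence index gave Aqp4 0.084, Car1 0.85, Car2 0.85, Atp1b1 0.65 and Cftr -0.26. The smooth muscle covariate gave Car1 0.10 and Cftr -0.30, and both covariates Car1 0.24 and Cftr -0.27. Slopes without 1 mouse ran from -0.012 to 0.16 for Cftr, and no other gene's slope changed sign. The fit on the share of probes detected was chosen after seeing the data, and called 3 genes with 24 mice and 4 with 21. Signal over background set no limit for the brightest probes, each detected on all arrays. The other Car2 and Cftr probes, detected on 0 arrays, give no level.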

Other observations

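The other Aqp4 probe, detected on 9 arrays, had a slope of -0.11 ± 0.07 on the inflammation index (limma adjusted p = 0.629), against -0.97 for the brightest probe. Of 6 markers of the distal colon, Hoxa13 and Hoxd10 were detected on at least 12 arrays and Hoxb13 on 0. Their mean log2 deviation was 0.74 in LL 3B and 0.40 in HL 2A, the 2 arrays with the fewest probes detected, 0.07 in LH 6A, the next, and between -0.30 and 0.28 in the remaining mice. LL 3B had the lowest Car2 and Atp1b1 of the 24 mice and HL 2A the second lowest Car2. The goblet cell mean ran the other way to the share of probes detected (r = -0.58 over 21 mice, a description), while the surface colonocyte mean ran with it (r = 0.69). Guca2b, the gene for uroguanylin and a near relative of Guca2a, had a slope of -0.10 ± 0.19 on the inflammation index (limma adjusted p = 0.898), and under median scaling it rose, at 0.58 (adjusted p = 0.00686).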
